A study of Mus musculus with 4 samples.

Results

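Genes for lysosomal enzymes, their activators and lysosomal membrane proteins were followed in mesenchymal stem cells (MSC), the plastic-adherent stromal cells of a tissue, from mouse colon and mouse bone marrow. The 35 genes were taken from a fixed list of 35 symbols: 8 cysteine cathepsins, 3 other proteases, 11 glycosidases and sulfatases, 6 lipid-handling proteins, 4 membrane proteins and 3 regulators or cargo proteins. A probe set belonged to a gene when the platform annotation paired it with that symbol alone. All 35 genes had such a probe set, 82 probe sets in all, out of 18193 genes named in this way on the array. Values are probe set intensities of Affymetrix mouse arrays, on a linear scale with no fixed unit, so they are compared between arrays for 1 probe set and not between probe sets.

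The bone marrow group held 2 MSC lines and the colonic group 2 MSC lines, with 1 array per line. All 4 lines came from C57BL/6 mice, the colonic ones from colon that had been flushed, and no genotype, age or treatment is given for either group. Each line was obtained by collagenase digestion and adherence to plastic, cultured with low glucose and 10% serum, and used at a passage between 5 and 10, so the values describe expanded cultures and not cells in the tissue. The labels call the 2 lines of a tissue biological replicates. How many animals gave a line is not stated. The p-values below set the difference between tissues against the spread between lines of 1 tissue, moderated by the spread of all genes tested. The precision is limited by the number of lines.

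Lysosomes are acidic compartments in which hydrolases break down proteins, glycans and lipids that arrive by endocytosis or autophagy. Most of the soluble enzymes are tagged with mannose 6-phosphate in the Golgi and carried there by receptors, while heavily glycosylated proteins such as LAMP1 and LAMP2 line the inner face of the membrane. Many of these genes are read by the transcription factor TFEB and its relatives TFE3 and MITF, which bind an E-box with the letters CACGTG in so-called CLEAR elements and are held in the cytoplasm by mTORC1 when nutrients are plentiful. In stromal cells the same enzymes, cathepsin K among them, also degrade collagen.

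The promoter sequences of some of these genes are shown first because the E-box is the feature through which they are thought to be regulated together. RefSeq promoter windows (GRCm38.p6), each running from 250 bases before to 50 bases after a gene's start, were matched for 32 of the 35 genes, in 36 windows; Ctsb, Ctsh and Asah1 were not matched. The letters CACGTG, which read the same on both strands, were in a window of 10 of these 32 genes (31.2%): Ctsa, Ctsd, Ctsl, Gaa, Gla, Glb1, Lamp1, Mcoln1, Naglu and Sgsh. Over all genes with a window, 8.09% held them, and 7.15% of all windows of this length. The longer TCACGTGA, which contains CACGTG, was in 4 of the 32 genes (Ctsa, Ctsd, Gla and Mcoln1), against 1.12% of all genes and 0.974% of all windows, and the same letters with G before and C after them in 0 of the 32, against 0.37% of all genes. A related E-box form known from MITF targets, TCATGTGA or its reverse complement TCACATGA, was in 5 (Ctss, Gla, Grn, Ppt1 and Tpp1), against 1.15% of all genes and 0.986% of all windows. Such a match is a string of letters and does not show that a factor binds there.

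The following stretches are written 5′ to 3′ on the gene's strand, with matches to CACGTG, TCATGTGA or TCACATGA in capitals. Lamp1, with 4 CACGTG matches within the last 61 bases before its start, Mcoln1 with 2 and Ctsd with 1 in the stretch shown are given as the 120 bases before the start. Gla is given as the first 120 bases of its window, where its 3 matches lie. Ctsa and Tpp1 are given as 30 bases across the start, and Ctsk, the gene with the largest difference between tissues, as the 120 bases before its start, which hold 0 matches. They lie at chr8:13159041-13159160 (plus strand, Lamp1), chr8:3500399-3500518 (plus, Mcoln1), chr7:142387828-142387947 (minus, Ctsd), chrX:134601136-134601255 (minus, Gla), chr2:164833757-164833786 (plus, Ctsa), chr7:105752208-105752237 (minus, Tpp1) and chr3:95499090-95499209 (plus, Ctsk).
Lamp1: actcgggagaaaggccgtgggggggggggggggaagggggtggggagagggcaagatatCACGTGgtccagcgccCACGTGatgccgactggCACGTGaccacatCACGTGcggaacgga
Mcoln1: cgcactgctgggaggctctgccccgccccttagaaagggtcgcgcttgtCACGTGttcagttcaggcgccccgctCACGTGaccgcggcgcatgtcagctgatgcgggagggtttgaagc
Ctsd: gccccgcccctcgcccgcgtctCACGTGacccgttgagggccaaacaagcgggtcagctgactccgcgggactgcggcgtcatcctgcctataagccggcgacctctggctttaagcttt
Gla: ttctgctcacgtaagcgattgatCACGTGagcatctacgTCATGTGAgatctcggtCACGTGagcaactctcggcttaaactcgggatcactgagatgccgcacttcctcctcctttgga
Ctsa: ctgtCACGTGatgcagatgctCACGTGacc
Tpp1: ccatgcTCATGTGActtaTCACATGActac
Ctsk: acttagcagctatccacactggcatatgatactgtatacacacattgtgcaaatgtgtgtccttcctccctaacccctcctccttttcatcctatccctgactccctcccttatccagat

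The 4 arrays had median intensities between 53.7 and 55.6 and highest values between 19203 and 20912. Of 14 measured stromal markers 14 passed the filter on low values, and Col1a2, Vim, Sparc and Fn1 were strong on every array (13174 or more). Dcn, the matrix proteoglycan decorin, was at 71.7 and 15.3 in the bone marrow lines against 4343 and 4252 in the colonic lines, and Lum at 9.77 and 6.07 against 107 and 181, so these stromal markers were near the floor in the lines labelled bone marrow. Macrophages are rich in lysosomal enzymes, and 12 of 17 macrophage markers, with Ptprc, Adgre1, Tyrobp and the C1q genes among them, stayed below 100 on all 4 arrays. The summed intensity of all 17 was 3655 and 1356 in marrow lines against 2042 and 3123 in colonic lines. Cd14 (573 to 963) and Csf1r (148 to 324) were above 100 on every array, and Lyz2, Cd53 and Fcer1g on some. Of these, Cd53 was at 14 and 15.7 in marrow lines and higher, at 155 and 1333, in colonic ones. Lyz2 differed within bone marrow, at 1589 and 31.7, with 150 and 590 in colonic lines. Fcer1g was highest on bone marrow replicate 1, at 640 and 59 in marrow lines against 43.2 and 59.6 in colonic ones. Of 8 epithelial markers, 5, with Epcam, Cdh1 and Vil1 among them, were below 100 on all arrays. Krt19, for a keratin, had 6223 and 5083 in marrow lines against 1890 and 105 in colonic ones. The keratin gene Krt20 stood out on colonic replicate 1, with 29.4 and 15.9 in marrow lines against 889 and 29.1 in colonic ones. Krt18 had 45.1 and 102 against 125 and 28.3. In a culture measured as a whole, fewer cells of a type and less RNA per cell cannot be told apart.

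No lysosomal gene passed the test for a difference between colonic and bone marrow MSC, and for most of them a 2-fold difference in either direction lay outside the 95% interval. With limma over 12920 genes, 0 of the 34 lysosomal genes that passed the filter had an adjusted p below 0.05 (background 0%, that is 0 of all 12920 genes) and 0 had one below 0.1 (0.379%), and the lowest adjusted p among them was 0.76, for Tpp1. Tpp1 was also the only 1 of the 34 with an unadjusted p below 0.05, against 6% of all genes tested. With the replicate number as a block 3 had one, Tpp1, Ctsd and Ctsk, a share near the 7.48% of all genes in that fit, with a lowest adjusted p of 0.57. Differences are given as colonic minus bone marrow on the log2(intensity + 13.7) scale, with limma's standard error. The median difference of the 34 genes was 0.13, against 0.01 over all genes tested, and their median size regardless of sign was 0.22, against 0.23.

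Large differences were scarce. The arrays of the tissues did not overlap and the means differed by at least 2-fold in 0 of the 34 genes, against 6.66% of all genes tested, and only Ctsk, at 1.39, had a mean difference of at least 2-fold (9.02% of all genes). The 95% interval of the difference lay wholly within 2-fold in either direction for 22 of the 34 genes, against 42.5% of all genes tested. Brighter probe sets gave tighter intervals: 28 of the 34 lysosomal genes had a mean intensity of at least 1000, all 22 were among these, and of all genes tested at that brightness 59.7% had such an interval. For the remaining 12 genes a difference of 2-fold could not be set aside at this number of arrays.

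Small differences leaned toward colon. The mean was higher in colonic MSC in 28 of the 34 genes (51.5% of all genes tested), and the arrays did not overlap in 14 with colon higher (18.4%) and in 1, Ids, with colon lower (15.1%). Bone marrow replicate 2 was the lowest of the 4 arrays in 23 of the 34 genes, against 32.5% of all genes tested. Relative to each gene's mean over the arrays, the median of the 34 genes was 0.05 on bone marrow replicate 1, -0.21 on bone marrow replicate 2, 0.08 on colonic replicate 1 and 0.05 on colonic replicate 2, while that of all genes tested was 0.03, -0.04, 0.01 and 0.02. Leaving out bone marrow replicate 2 gave a higher colonic mean in 20 of 34 genes and a median difference of 0.06. When bone marrow replicate 1 was left out instead, 30 genes had a higher colonic mean, with a median of 0.30. On bone marrow replicate 2 the summed intensities of the stromal markers (92375, against 102494 to 109969 elsewhere) and of the macrophage markers (1356, against 2042 to 3655) were also the lowest. Gene by gene, it was the lowest array in 9 of 14 stromal markers. Among 8 macrophage markers tested it was lowest in 3, as was bone marrow replicate 1. The part of these markers in the counts was not tested.

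**Figure D1:**
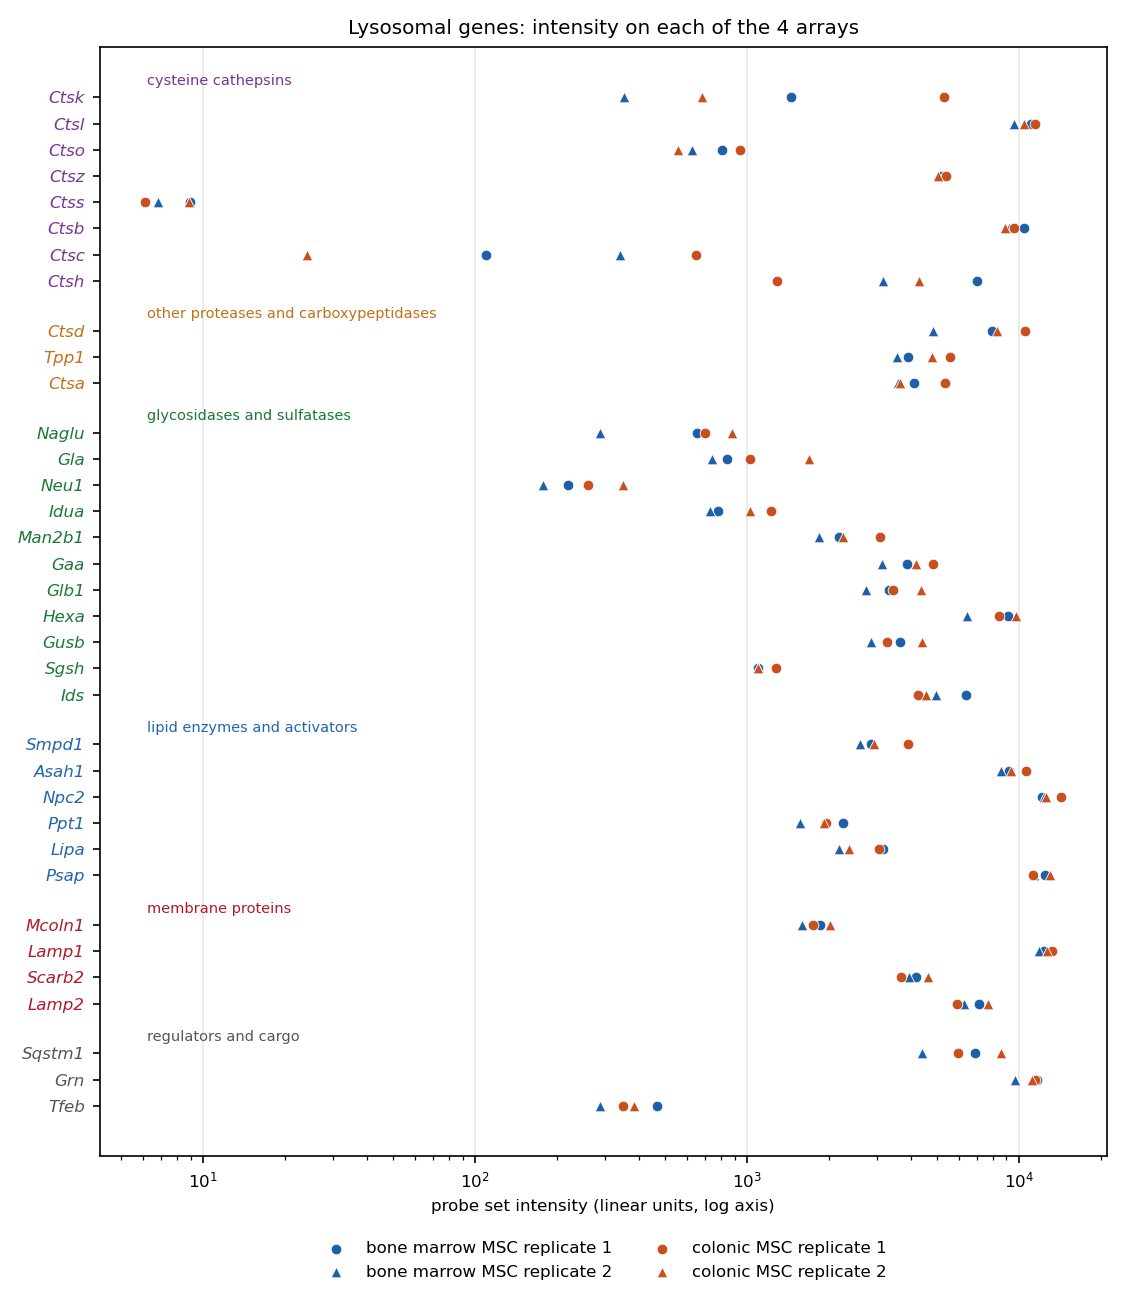
Intensity of the highest probe set of each of the 35 lysosomal genes on each of the 4 arrays (points; blue, bone marrow lines; orange, colonic lines; circles, replicate 1; triangles, replicate 2), on a log axis and grouped by role. Most genes have 4 points close together, while Ctsk, Ctsc and Ctsh spread within each tissue and Ctss lies near the floor, between 6.12 and 8.92.

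**Figure D2:**
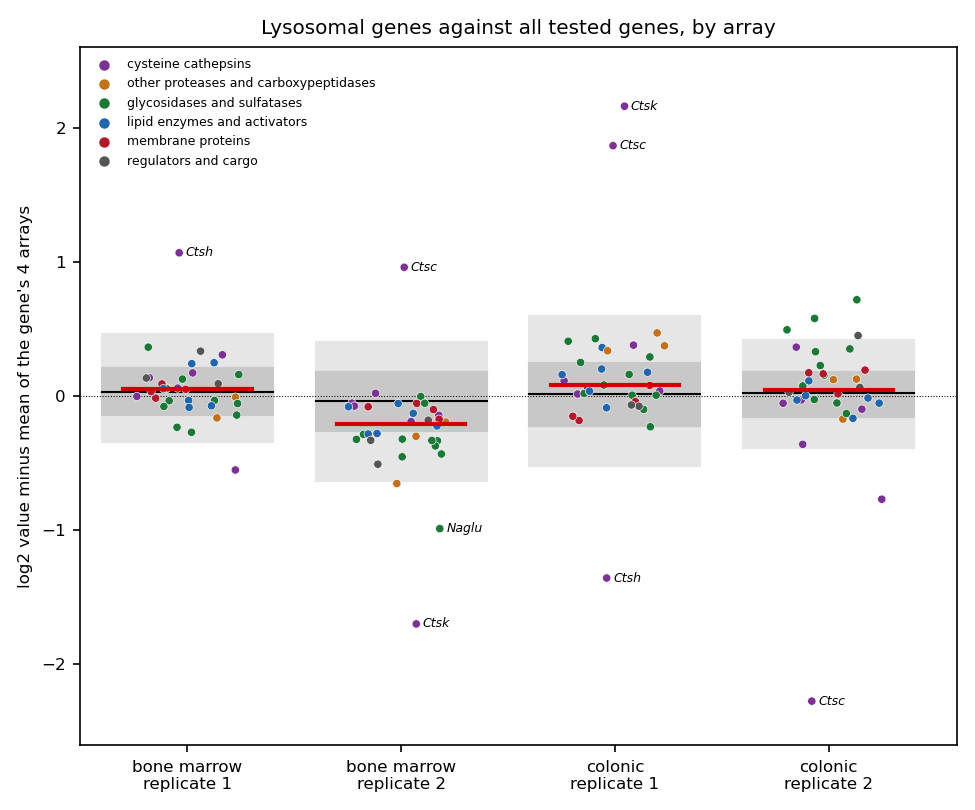
Log2 value on each array minus the mean of the gene's 4 arrays, for the 34 lysosomal genes tested (points coloured by role; red line, their median) over all genes tested (dark grey, middle 50%; light grey, 10th to 90th percentile; black line, median). On bone marrow replicate 2 the red line is at -0.21, and elsewhere it is between 0.05 and 0.08.

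Cysteine cathepsins are papain-like proteases, and the genes with the widest spread belonged to this group. Cathepsin B and cathepsin L, broadly expressed enzymes of bulk protein breakdown, varied little on their brightest probe sets. Ctsb had intensities of 10477 and 9188 in marrow lines against 9633 and 8903 in colonic lines, a difference of -0.08 ± 0.11 (SE), and Ctsl 11066 and 9616 against 11504 and 10411, a difference of 0.09 ± 0.11. In both genes the arrays of the tissues overlapped, and their 95% intervals (-0.38 to 0.21 and -0.22 to 0.39) kept well within 2-fold. The other Ctsb probe sets, all dimmer, differed by between -0.29 and 0.01. Their arrays spread more, for example at 1891 and 949 in marrow lines against 1608 and 1133 in colonic ones. Ctsz, a carboxypeptidase of the same family, lay between 5044 and 5374 on all 4 arrays, and Ctso between 558 and 940.

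Cathepsin K, the collagen-degrading enzyme best known from osteoclasts and also made by fibroblasts, spread more between lines of 1 tissue than between the tissue means. Ctsk was at 1454 and 352 in marrow lines against 5285 and 682 in colonic lines, means of 903 ± 779 and 2984 ± 3255 (SD, n = 2). Colonic replicate 1 stood above the other arrays and colonic replicate 2 lay between the bone marrow lines. The difference of 1.39 ± 1.21 (SE) had a 95% interval from -1.81 to 4.59 and an adjusted p of 0.976 with limma, and it was -0.07 without colonic replicate 1 and 2.85 without colonic replicate 2. Of 9 osteoclast markers, a list that includes Ctsk, 4 (Acp5, Calcr, Dcstamp and Ocstamp) were below 100 on all arrays. The osteoclast transcription factor gene Nfatc1, which stromal cells also express, was at 1408 and 1106 in marrow lines against 2630 and 2071 in colonic lines. Itgb3 had 497 and 70.9 against 485 and 524, and Oscar 62.3 and 65.5 against 104 and 72.1. Atp6v0d2, at 113 and 147 against 130 and 117, differed by -0.05. The median difference of the 5 osteoclast markers tested was 0.90, and 0.29 with the mean of probe sets. The summed list was at 3568 and 1771 in marrow lines against 8698 and 3525 in colonic lines. Ctsk itself, at 5285, made up much of the 8698 on colonic replicate 1, so the sum is not independent of Ctsk. The part of osteoclasts in the Ctsk values was not tested.

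Ctsc, the gene of dipeptidyl peptidase 1, which activates serine proteases of granules, had the widest range of the list. Its intensities were 110 and 340 in marrow lines against 649 and 24.0 in colonic lines. The colonic lines were thus 27.1-fold apart and enclosed both bone marrow lines. The value of 24.0 lay below the filter intensity of 31.9, so the size of this fold is uncertain. The other Ctsc probe sets did not pass the filter. The Ctsc difference of -0.41 ± 1.49 (SE) turned to 0.35 when bone marrow replicate 2 was left out and to 1.66 when colonic replicate 2 was. Among all genes tested 4.85% had colonic arrays at least 4-fold apart and 4.27% bone marrow arrays; of the 34 lysosomal genes Ctsc and Ctsk had the former and Ctsk the latter (4.13-fold). Ctsh, an aminopeptidase, was at 7001 and 3165 in marrow lines against 1294 and 4297 in colonic lines, a difference of -0.99 ± 0.70 (SE) that became -0.13 without colonic replicate 1 and -1.85 without colonic replicate 2. Its second probe set gave the same order of arrays, at 6656, 2979, 1121 and 3912. Ctss, the cathepsin of antigen-presenting cells, did not pass the filter and was between 6.12 and 8.92 on the 4 arrays, near the floor in both tissues.

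The other proteases leaned toward colon in all 3 genes, with a median difference of 0.46, and 0 of 3 passed. Tpp1, a serine protease that trims tripeptides and is lost in a childhood ceroid lipofuscinosis, was at 3924 and 3568 in marrow lines against 5558 and 4799 in colonic lines. Both colonic lines were above both bone marrow lines, the closest arrays being 1.22-fold apart. The difference was 0.46 ± 0.16 (SE, 95% interval 0.04 to 0.89, unadjusted p = 0.0379, limma adjusted p = 0.76). A second Tpp1 probe set, with 2027 and 1653 against 2847 and 2124, had a difference of 0.42, and the estimate ran from 0.36 to 0.57 when any 1 array was left out.

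Ctsd, the aspartic protease cathepsin D, had 7941 and 4845 in marrow lines against 10561 and 8297 in colonic lines, means of 6393 ± 2190 and 9429 ± 1601 (SD, n = 2). The tissues did not overlap, but the closest arrays were only 1.04-fold apart. Its difference was 0.59 ± 0.28 (SE, limma adjusted p = 0.931), and it became 0.24 and 0.95 when bone marrow replicate 2 and 1 were left out in turn. Ctsa, the carboxypeptidase that shields beta-galactosidase and neuraminidase in a complex, was at 4102 and 3606 against 5352 and 3662, a difference of 0.20 ± 0.24 that was -0.07 without colonic replicate 1. Its second probe set, much dimmer, had a difference of -0.36.

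Glycosidases and sulfatases remove sugars and sulfate groups from glycoproteins, glycolipids and glycosaminoglycans, and their loss causes storage diseases. In 10 of the 11 genes the colonic mean was higher (51.5% of all genes), in 8 of them with arrays that did not overlap (18.4%), and 0 of 11 passed the test. The median difference of the group was 0.37, and it stayed positive, between 0.22 and 0.52, when any 1 array was left out. Quantile normalization gave 0.36 and median centring 0.35. Bone marrow replicate 2 was the lowest array in 9 of the 11 genes.

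Gla, the alpha-galactosidase of Fabry disease, was at 843 and 741 in marrow lines against 1024 and 1684 in colonic lines, a difference of 0.72 ± 0.36 (SE, limma adjusted p = 0.946). The colonic lines were both above the bone marrow lines. A dimmer Gla probe set gave a wider gap, 164 and 26.2 against 224 and 493 (difference 2.04), and the third 36.3 and 13.7 against 36.4 and 89.5 (0.96), so the size depended on the probe set while the direction did not. Idua, the iduronidase that cuts heparan and dermatan sulfate, had 780 and 728 against 1224 and 1025, a difference of 0.56 ± 0.29 with closest arrays 1.31-fold apart, the widest such gap of the 34 genes. Its other probe set differed by 0.59.

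Ids, the iduronate sulfatase that acts on the same glycosaminoglycans, went the other way. It was at 6413 and 4967 in marrow lines against 4248 and 4546 in colonic lines, a difference of -0.36 ± 0.18 (SE, limma adjusted p = 0.944), with closest arrays 1.09-fold apart. The direction was not shared by all its probe sets: the next brightest differed by -0.18 and the 2 dim ones above the filter by 0.33 and 0.57. The mean over its filtered probe sets was 0.09.

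Further glycosidases had differences of 0.83 for Naglu, 0.57 for Neu1, 0.40 for Man2b1, 0.37 for Gaa (the glycogen-degrading alpha-glucosidase), 0.36 for the beta-galactosidase gene Glb1, 0.25 for Hexa, 0.23 for Gusb and 0.11 for Sgsh. Naglu, an enzyme of heparan sulfate breakdown, had 1 low array, bone marrow replicate 2, with 288 there against values of 656, 698 and 880 elsewhere. The gaps between the closest arrays of Gaa, Glb1 and Man2b1 were 1.08-fold, 1.03-fold and 1.04-fold. Sgsh, at 1095 and 1097 in marrow lines against 1275 and 1098 in colonic lines, counted as free of overlap with almost equal closest arrays. Hexa and Gusb overlapped between tissues.

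Proteins of lipid breakdown had a median difference of 0.08 and 95% intervals within 2-fold for 6 of 6 genes. Such intervals were found in 42.5% of all genes tested. At a mean intensity of at least 1000, which all 6 genes had, the share was 59.7%. Psap, the precursor of the saposins that present sphingolipids to their hydrolases, was between 11269 and 12959 and overlapped between tissues (0.02 ± 0.11, SE). Npc2, which hands cholesterol to the export machinery of the lysosome, had 12182 and 12324 in marrow lines against 14308 and 12553 in colonic lines, a difference of 0.13 ± 0.09. Asah1, the acid ceramidase, had 9214 and 8615 against 10658 and 9329 (0.16 ± 0.11), and the acid sphingomyelinase gene Smpd1 2856 and 2596 against 3896 and 2922 (0.31 ± 0.22). In these 3 of the 6 genes the colonic lines were above the bone marrow lines (18.4% of all genes tested), by 1.01- to 1.02-fold at the closest arrays. Lipa, the acid lipase, and Ppt1, a palmitoyl-thioesterase, differed by 0.03 and 0.04 with overlapping arrays.

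The 4 membrane proteins differed by between 0.01 and 0.12, and 0 of 4 passed. Their median difference, 0.06, was -0.01 without bone marrow replicate 2 and -0.06 without colonic replicate 2. Lamp1 was at 12363 and 11826 in marrow lines against 13204 and 12639 in colonic lines, a difference of 0.10 ± 0.08 (SE) with a 95% interval from -0.11 to 0.30, the narrowest of the 34 genes. Its promoter is the one with 4 CACGTG letters shown above. Lamp2 was at 7155 and 6267 against 5924 and 7687, a difference of 0.01 ± 0.18 whose sign turned to -0.02 with quantile normalization and -0.01 with median centring; its 4 probe sets differed by between -0.10 and 0.05. The calcium channel gene Mcoln1 had 1860 and 1592 against 1745 and 2015 (0.12 ± 0.24), and Scarb2, the sorting receptor of glucocerebrosidase, 4200 and 3948 against 3694 and 4628 (0.02 ± 0.18). Arrays overlapped in Lamp2, Mcoln1 and Scarb2. A second Scarb2 probe set, at 1764 and 1596 against 2197 and 2781, differed by 0.56 without overlap.

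**Figure D3:**
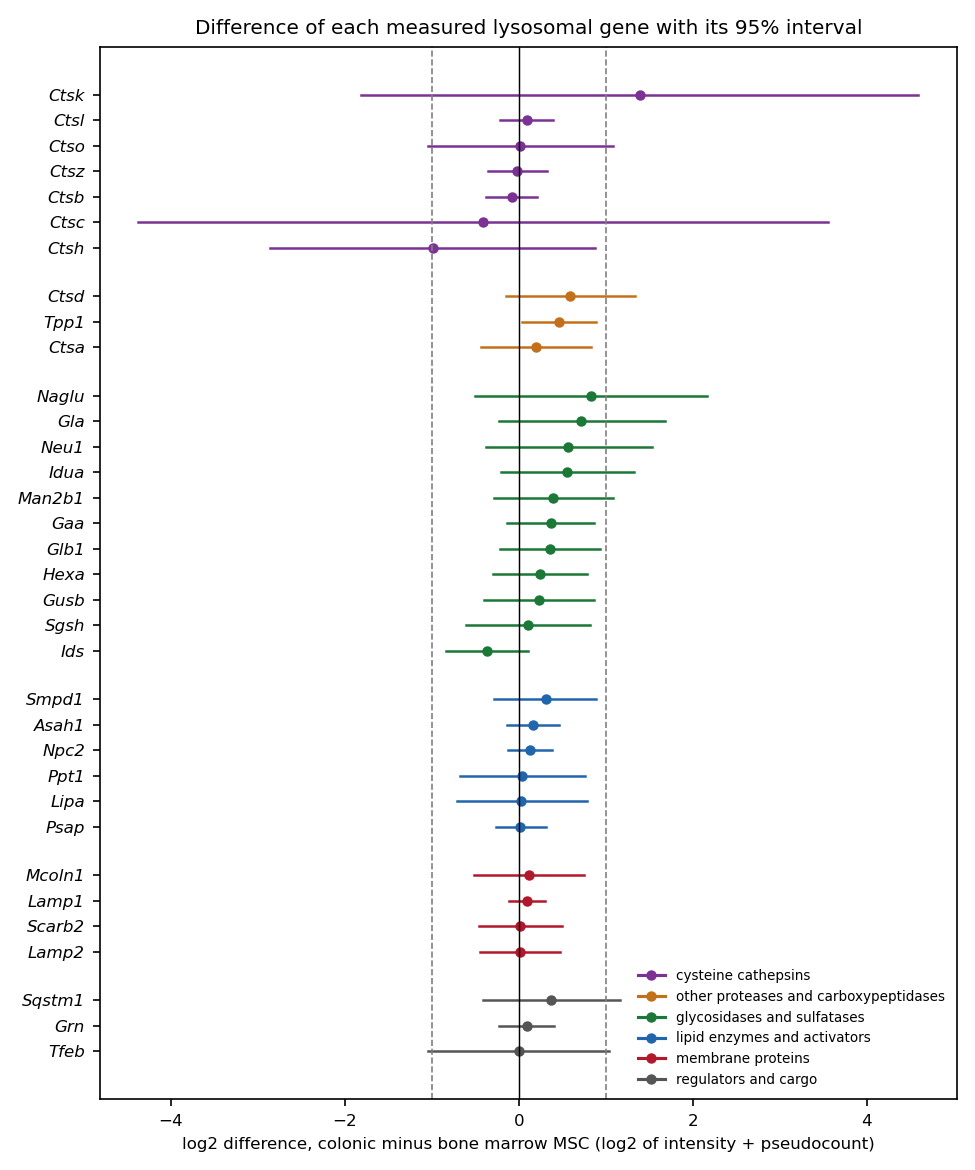
Difference between colonic and bone marrow MSC in log2(intensity + 13.7) for the 34 lysosomal genes that passed the filter (points) with limma's 95% interval (lines), coloured by role; dashed lines mark 2-fold. The intervals of Lamp1, Npc2 and Psap are narrow around 0, while those of Ctsk, Ctsc and Ctsh cross both or 1 of the dashed lines.

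Tfeb, the transcription factor of the lysosomal gene programme, was at 466 and 289 in marrow lines against 349 and 384 in colonic lines. Both colonic lines lay between the bone marrow lines, and the difference was 0.00 ± 0.39 (SE, 95% interval -1.04 to 1.04). Sqstm1, the autophagy receptor p62, which is itself degraded with its cargo, had 6889 and 4409 against 5955 and 8581, a difference of 0.37 ± 0.30 with overlapping arrays. Grn, the gene of progranulin, a secreted protein that is also processed in lysosomes, had 11655 and 9654 against 11417 and 11152, and its 3 probe sets differed by between 0.08 and 0.09. Transcript levels say nothing of where TFEB protein resides in the cell.

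Genes with CACGTG in their promoter window were set beside those without it. All 10 such lysosomal genes had a higher mean in colonic MSC, with a median difference of 0.28, against 17 of 21 and 0.09 for the tested genes whose windows lacked it. Bone marrow replicate 2 was the lowest array in 9 of these 10 genes and in 13 of the 21, and in 30.5% of all tested genes with CACGTG. Leaving out that array gave a higher colonic mean in 9 of the 10 (median 0.16) and in 10 of the 21 (median 0.00). The groups also differed in role, and the part of role in this gap was not tested. Glycosidases and sulfatases with CACGTG differed by 0.37 (Gaa), 0.72 (Gla), 0.36 (Glb1), 0.83 (Naglu) and 0.11 (Sgsh). Those without it differed by 0.56 (Idua), 0.57 (Neu1), 0.40 (Man2b1), 0.25 (Hexa), 0.23 (Gusb) and -0.36 (Ids). Over all 1186 tested genes with CACGTG in a window, 52.1% had a higher colonic mean and the median difference was 0.02, and over the 9251 tested genes without it the values were 51.7% and 0.02. The 4 tested genes with TCATGTGA or TCACATGA (Gla, Grn, Ppt1 and Tpp1) also had higher colonic means, with bone marrow replicate 2 lowest in 4 of 4. Over all 96 tested genes with these letters, 64.6% had a higher colonic mean, against 51.7% of those without. Bone marrow replicate 2 was lowest in 45.8% of the 96. These are counts over small groups of genes, with no test.

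Other genes of the pathway, from lists of 114 symbols of which 105 had a probe set and 100 passed the filter, followed a similar course. With limma 0 of the 100 had an adjusted p below 0.05, and 3, Rragd, Sort1 and Npc1 (a cholesterol exporter of the lysosomal membrane, chosen for mention after its values were seen), an unadjusted p below 0.05, a smaller share than the 6% of all genes tested. The colonic mean was higher in 76 of the 100 (51.5% of all genes), with a median difference of 0.16, and bone marrow replicate 2 was the lowest array in 60. Without that array the colonic mean was higher in 55, with a median of 0.05.

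Subunits of the vacuolar proton pump, which acidifies the lysosome, had a higher colonic mean in 15 of 15 measured genes (51.5% of all genes), with 8 free of overlap (18.4%), a median difference of 0.29 and 0 past the test. Atp6v1h was at 3685 and 2789 in marrow lines against 4542 and 4579 in colonic lines (0.51 ± 0.20, SE), and Atp6v0b at 2172 and 2386 against 3516 and 2919 (0.49 ± 0.20). Bone marrow replicate 2 was lowest in 13 of the 15 subunits. Without it 12 of 15 had a higher colonic mean and the median was 0.10. These 2 subunits are named although they do not differ by 2-fold, chosen after their values were seen.

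Only Rragd and Sort1 among the 100 genes had arrays that did not overlap and means at least 2-fold apart, against 6.66% of all genes tested. Rragd, a Rag GTPase that places mTORC1 and TFEB family factors at the lysosome and is itself a target of those factors, was at 28.4 and 11.4 in marrow lines against 691 and 196 in colonic lines. Both marrow values were below the filter intensity of 31.9, so Rragd passed the filter only through the colonic arrays. Its fitted difference of 3.56 ± 0.69 (SE, limma adjusted p = 0.375) depends on the pseudocount and gives no size. Rragc and Rraga differed by 0.09 and 0.06. Sort1, a sorting receptor that carries some enzymes to the lysosome, was at 158 and 38.2 against 434 and 388, a difference of 2.17 ± 0.65 (limma adjusted p = 0.676). The mannose 6-phosphate receptor genes M6pr and Igf2r differed by 0.12 and 0.16. Of that sorting list, 9 of the 10 genes overlapped between tissues, against 8590 of all 12920 genes tested.

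Of the relatives of Tfeb, Tfe3 differed by 0.15 and Tfec did not pass the filter. Mitf was at 357 and 241 in marrow lines against 517 and 21.4 in colonic lines, so that colonic replicate 2 was far below the other lines. Colonic replicate 1 was the highest array for Mitf, Ctsk and Ctsc. It was also the highest in 16 of the 34 lysosomal genes and in 3891 of all 12920 genes tested. Colonic replicate 2 was the lowest array for Mitf and Ctsc but not for Ctsk, and in 2602 of all 12920 genes. Whether the levels of Mitf, Ctsk and Ctsc are linked was not tested. The MiT/TFE and mTORC1 list as a whole had a median difference of 0.09 over 15 genes, with 9 higher in colon.

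The other lysosomal hydrolases had a median difference of 0.16 over 20 genes (13 higher in colon), with 4 higher and 2 lower without overlap, shares near the 18.4% and 15.1% of all genes, and the other membrane proteins and transporters 0.24 over 16 genes (12 higher). Autophagy genes had a median of 0.16 over 20 genes, 16 of them higher in colon. Gabarapl1, a protein of the autophagosome membrane, stood at 4059 and 2356 against 4598 and 4935, while Map1lc3b, the LC3B gene, differed by 0.03 and Becn1 by 0.00. Of the 4 cathepsin inhibitors tested, cystatin C (Cst3) differed by 0.09, Cstb by 0.06 and Serpinb6a by 0.00. Cst6, at 1051 and 146 in marrow lines against 504 and 945 in colonic lines, differed by 0.77 ± 1.00 (SE). The median of the 4 genes was 0.08. With quantile normalization 2 of the 4 were higher in colon, against 4 of 4 with the deposited scaling. Medians turned below 0 for the other hydrolases when colonic replicate 1 was left out (-0.10), and for the sorting list (-0.13) and the inhibitors (-0.08) when bone marrow replicate 2 was. Without bone marrow replicate 2 the autophagy median was 0.03, with 11 of 20 genes higher in colon. The other membrane proteins and transporters then had 0.06 (8 of 16 higher) and the other hydrolases 0.00 (10 of 20).

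**Figure D4:**
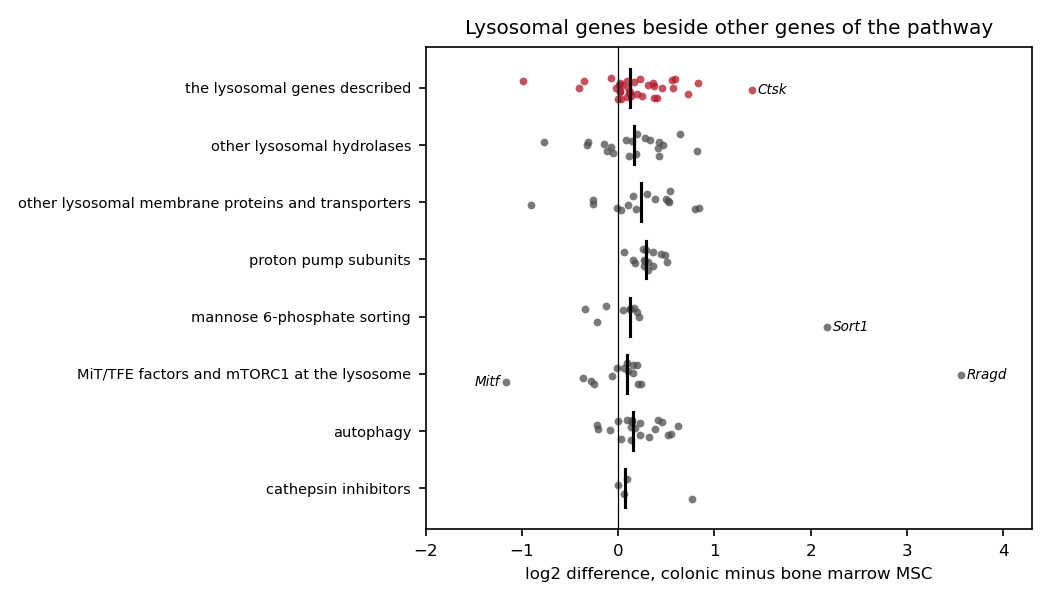
Difference between colonic and bone marrow MSC in log2(intensity + 13.7) for the 34 lysosomal genes tested (red) and for 7 lists of other lysosome and autophagy genes (grey), 1 point per gene and a black bar at each list's median. The medians lie between 0.08 and 0.29, and Rragd, at 3.56 with marrow values below the filter intensity, and Sort1, at 2.17, stand apart; Mitf (-1.17) and Ctsk (1.39) overlap between tissues.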

How the data were processed

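Amplified, biotin-labelled RNA from 4 MSC lines was read on Affymetrix arrays, as the labels' protocols state. The authors deposited 1 intensity per probe set and array, a linear scale by the look of the numbers. Their summarisation, background and scaling steps were not given in the sources used here. Of 45101 probe sets, 34945 had 1 symbol in the platform annotation. Values were used as log2(intensity + 13.7), 0.25 of the table median being the pseudocount. Probe sets above the 40th percentile of mean log2 value (about 31.9) were kept, and the highest stood for its gene, which left 12920 genes. The difference was fitted by limma 3.58.1 (R 4.3.3; lmFit and eBayes with an intensity trend, 2 residual degrees of freedom, two-sided, Benjamini-Hochberg over all genes). The fit was tested on simulated data. An exact permutation test of 2 against 2 arrays cannot give a p below 0.333. Genes named with all values were up to 3 per role with the lowest p, those past 2-fold without overlap, those with arrays of 1 tissue at least 4-fold apart, and Tfeb, Lamp1, Lamp2, Ctsb, Ctsd, Ctsk, Grn and Sqstm1; other values and the limit of 1000 for bright genes were chosen after the data were seen. The genes, lists and tests were chosen with earlier results of these data known.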

Additional observations from a re-analysis of the deposited data

How the results depend on the processing

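In the fit as reported and in each alternative run, 0 lysosomal genes and 0 of the other pathway genes passed an adjusted p of 0.05. At 0.1, 0 lysosomal genes passed, and 1 other pathway gene, Rragd, did so without colonic replicate 2. Over all genes the count of 0 became 13 after quantile normalization and 17 after median centring, 15 for a pseudocount of 1 as for the 60th-percentile filter, and 12 for averaged probe sets. It was 13 in a fit lacking the trend, 15 in a robust one, 34 and 20 with colonic replicate 1 or 2 removed, and 49 at an adjusted p below 0.1. The count of lysosomal genes past 2-fold without overlap, 0, was 1 (Gla) with the mean of probe sets and with the second probe set, and from 1 to 3 when 1 array was left out, where a lone array makes overlap less likely. The count with an unadjusted p below 0.05, 1 in the main fit, was 0 with the mean of probe sets, with the second probe set and without a trend, 3 with the replicate block, and from 1 to 3 with 1 array left out; over all genes it was 775, and 1379 without colonic replicate 2.

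The median difference of the lysosomal genes, 0.13, ran from 0.06 to 0.30 with 1 array left out. Over all 34 genes, signs changed in 3 genes after quantile normalization (Ctso, Lamp2 and Psap), in 2 after median centring (Ctso and Lamp2), in 4 for averaged probe sets (Ctsa, Ids, Lamp2 and Lipa) and in 5 for the second probe set (Ctsa, Ctsz, Lipa, Man2b1 and Psap). Removing 1 array changed 2 signs for bone marrow replicate 1, 10 for bone marrow replicate 2, 5 for colonic replicate 1 and 5 for colonic replicate 2. Among the genes given with all arrays, Lamp2 became -0.02 with quantile normalization, -0.01 with median centring and -0.03 with the mean of probe sets, Ctsa -0.08 and -0.36 with the mean and the second probe set, and Ids 0.09 with the mean. Of these genes, those whose range crossed 0 with 1 array left out were Ctsa (-0.07 to 0.48), Ctsb (-0.18 to 0.01), Ctsc (-2.48 to 1.66), Ctsk (-0.07 to 2.85), Ctsl (-0.02 to 0.19), Grn (-0.05 to 0.22), Lamp2 (-0.18 to 0.20), Scarb2 (-0.14 to 0.18) and Tfeb (-0.34 to 0.33). The cause of these changes was not tested. The replicate number is shared between tissues without a stated meaning, and the replicate 1 minus replicate 2 differences of the tissues correlated at 0.11 across genes, which are not independent. Detection calls were not used, so values near the floor are not shown to be absent.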
